A study of Mus musculus with 24 samples.

Results

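Troponin is the calcium switch of the striated muscle thin filament. It is built from an inhibitory subunit (troponin I), a tropomyosin-binding subunit (troponin T) and a calcium-binding subunit (troponin C), and each subunit has genes used mainly by slow skeletal, fast skeletal or cardiac muscle. The rodent heart expresses the slow skeletal troponin I gene Tnni1 before birth and replaces it with the cardiac gene Tnni3 afterwards, a switch whose timing thyroid hormone is known to influence. The 8 troponin genes, Tnni1, Tnni2, Tnni3, Tnnt1, Tnnt2, Tnnt3, Tnnc1 and Tnnc2, are described here. They were taken by gene symbol, each was read by 1 probe set, and they are 8 of 22139 genes and unnamed probe sets left after control probe sets were removed.

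The data are Clariom S arrays, which read transcripts by hybridization, of 24 whole hearts, 1 male mouse per array and 6 per group. Mice were 4 to 5 months old, of the strain C57/BL6NCr, and housed in groups at 22 °C. They were either wild-type or TRα1+m, the latter carrying the R384C mutation of the thyroid hormone receptor gene Thra as a heterozygous knock-in, so that it is present in every cell that expresses the gene. The mutant receptor binds the hormone T3 with lower affinity and can repress its target genes. All fathers were heterozygous and all mothers wild-type. All mothers drank water with BSA at 0.01%, and in the treated arms also T3 at 0.5 mg/L, given between embryonic days 12.5 and 18.5 by the labels. The study's text gives an earlier last day of treatment. The offspring themselves were not treated, and "untreated" below means that the mother drank BSA alone. The 4 groups are thus untreated wild-type, untreated TRα1+m, T3-exposed wild-type and T3-exposed TRα1+m mice. Dams and litters are not named in the labels, so mice of 1 litter could not be accounted for.

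Values are deposited log2 signals. Changes are differences of log2 values, tested with limma on all 19801 genes and probe sets whose mean was above 4 in at least 1 group, and a change was called at a Benjamini-Hochberg adjusted p under 0.05. Array medians ran from 6.31 to 6.38. On the first principal component, which held 17.5% of the variance, 5 arrays stood apart: untreated TRα1+m mouse 4, T3-exposed wild-type mice 14 and 15, and T3-exposed TRα1+m mice 16 and 17. The mouse numbers in the labels fall into a range up to 17 (9 mice) and a range from 37 (15 mice), unevenly spread over the groups. All 8 troponin genes entered the test. Tnni1 entered only through the TRα1+m groups, in which it was high, and Tnnc2 only through T3-exposed wild-type mice. The heart markers among the genes were bright: Tnni3, Tnnt2 and Tnnc1 had values between 17.03 and 19.37 in every mouse.

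The troponin I and troponin T genes lie in neighbouring pairs in the mouse genome, in the RefSeq annotation of assembly GRCm38.p6. Tnni1 and Tnnt2 flank the gene Lad1 on chromosome 1, Tnni3 and Tnnt1 are adjacent on chromosome 7, Tnni2 and Tnnt3 lie near each other elsewhere on chromosome 7, and the troponin C genes Tnnc1 and Tnnc2 stand alone on chromosomes 14 and 2. The promoters of 3 genes are shown: those of Tnni1 and Tnnc1, which passed the test for genotype, and that of Tnni3, the adult counterpart of Tnni1. Each runs from 250 bases before to 50 bases after an annotated start and is written in the gene's direction. The letters are RefSeq sequence of GRCm38.p6. Capitals mark matches, on either strand, to the E-box CANNTG or the MEF2 core TAAAAAT, which reads ATTTTTA on the other strand.
Tnni1, chr1:135799171-135799470, plus strand: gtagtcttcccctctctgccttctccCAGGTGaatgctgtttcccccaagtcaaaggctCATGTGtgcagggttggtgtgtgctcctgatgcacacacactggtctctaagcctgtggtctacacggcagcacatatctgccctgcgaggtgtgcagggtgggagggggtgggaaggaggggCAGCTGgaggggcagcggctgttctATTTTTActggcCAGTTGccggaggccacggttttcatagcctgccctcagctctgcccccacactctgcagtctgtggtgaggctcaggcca
Tnnc1, chr14:31208062-31208361, plus strand: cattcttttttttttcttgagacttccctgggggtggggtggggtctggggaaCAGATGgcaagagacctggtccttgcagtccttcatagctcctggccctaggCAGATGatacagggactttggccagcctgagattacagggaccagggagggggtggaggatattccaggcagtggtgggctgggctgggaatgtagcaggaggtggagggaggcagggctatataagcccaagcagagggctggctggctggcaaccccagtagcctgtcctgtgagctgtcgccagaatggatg
Tnni3, chr7:4522479-4522778, minus strand: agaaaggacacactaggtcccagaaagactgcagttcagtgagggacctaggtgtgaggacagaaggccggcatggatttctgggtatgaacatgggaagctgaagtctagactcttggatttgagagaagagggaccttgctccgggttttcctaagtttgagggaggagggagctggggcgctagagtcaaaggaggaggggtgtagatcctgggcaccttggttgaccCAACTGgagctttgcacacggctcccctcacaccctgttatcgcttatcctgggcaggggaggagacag
The MEF2 core was found in both annotated Tnni1 promoters, which overlap, and in none of the other 6 troponin promoters of the table. It occurred in 6.53% of all 32851 promoters. The E-box was found in all 8 troponin promoters and in 72.3% of all promoters. The nuclear receptor half-site AGGTCA, one of the letter strings that thyroid hormone receptors can bind, was in 0 of the 8 and in 16.3% of all. The M-CAT element CATTCCT and the GATA string AGATAA were each in 1 Tnnt2 promoter (5.36% and 11.2% of all), and TATAAA was in the Tnnt1 promoter (13.6% of all). These matches describe the letters of the windows only.

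Tnni1, the fetal heart and slow skeletal troponin I, was higher in the hearts of TRα1+m than of wild-type mice. Its log2 value in untreated wild-type mice was 3.20 at the lowest, 3.62 at the median and 4.07 at the highest. In untreated TRα1+m mice it was 4.11, 4.66 and 5.29. Thus the lowest TRα1+m mouse lay just above the highest wild-type mouse and the groups did not overlap, as was the case, in the same direction, for 0.924% of all genes tested. The means were 3.64 ± 0.37 (SD, n = 6) and 4.71 ± 0.41 (SD, n = 6), a log2 change of 1.07 (standard error 0.24, adjusted p = 0.0156 by limma), or 2.10-fold with a 95% interval from 1.49 to 2.95. The TRα1+m mouse had the higher value in 36 of 36 pairs of mice, and the two-sided exact permutation p of 0.00216 is the smallest that 6 against 6 mice allow. Since the wild-type mean was below the filter of 4, at which signal is hard to tell from background, the fold rests on dim values. Tnni1 passed the filter only through the TRα1+m groups, but with no filter at all the adjusted p was 0.0165 without and 0.0466 after maternal T3, and 0.000383 over both treatments.

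The difference in Tnni1 was also seen in offspring of T3-treated mothers. Values ran from 3.55 over a median of 3.92 to 4.44 in T3-exposed wild-type mice. They ran from 3.90 over 4.96 to 5.73 in T3-exposed TRα1+m mice. Here the groups overlapped, since the lowest TRα1+m mouse lay among the wild-type mice, and the mutant was higher in 32 of 36 pairs. The log2 change was 0.88 (standard error 0.24, adjusted p = 0.0433 by limma, two-sided exact permutation p = 0.0130). Taking both treatments together, Tnni1 was higher by 0.98 (standard error 0.17, adjusted p = 0.000368), 1.97-fold, and this call held without any 1 of the 24 mice. In contrast, the call after maternal T3 was lost when any of 11 of the 24 mice was omitted, with adjusted p up to 0.114 and changes of 0.71 to 1.08. Without maternal T3 it was lost in 2, leaving out untreated wild-type mouse 57 or untreated TRα1+m mouse 5, with adjusted p up to 0.0525.

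Maternal T3 was not followed by a called change of Tnni1. The change was 0.33 (95% interval -0.17 to 0.82, adjusted p = 0.619 by limma) in wild-type and 0.15 (-0.35 to 0.64, adjusted p = 0.894) in TRα1+m mice. The difference between the genotype effects with and without maternal T3 was -0.18 (-0.88 to 0.52). The group means thus rank from untreated over T3-exposed wild-type to untreated and then T3-exposed TRα1+m mice. Neighbours within a genotype did not pass the test, and the step between T3-exposed wild-type and untreated TRα1+m mice, which crosses both factors, was not tested. The highest-ranked group exceeded the lowest by 1.21 (standard error 0.24, adjusted p = 0.00310, 34 of 36 pairs).

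**Figure D1:**
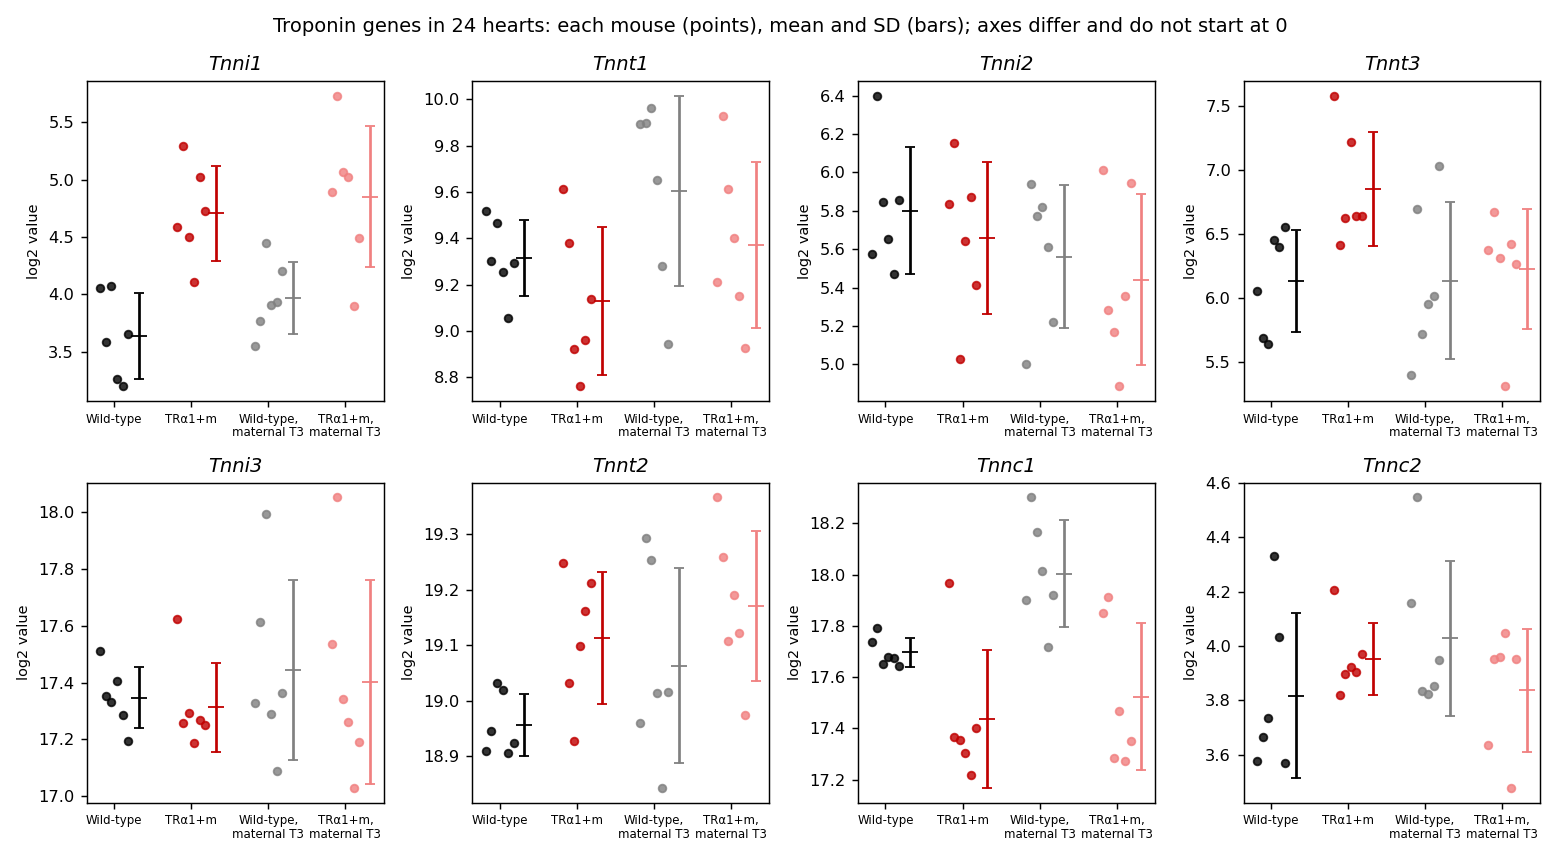
Log2 values of the 8 troponin genes (y axes, which differ between panels and do not start at 0) by group (x axes), each point 1 mouse, with the group mean and SD, n = 6. Tnni1 lies higher in both TRα1+m groups (means 4.71 and 4.85) than in both wild-type groups (3.64 and 3.97), and Tnnc1 lies lower in most TRα1+m mice.

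No change of Tnni3, the cardiac troponin I of the adult heart, was called. Without maternal T3 its values ran from 17.20 over a median of 17.34 to 17.51 in wild-type mice and from 17.19 over 17.26 to 17.62 in TRα1+m mice. After maternal T3 they ran from 17.09 over 17.34 to 17.99 in wild-type mice and from 17.03 over 17.30 to 18.05 in TRα1+m mice. The groups overlapped throughout. The genotype change was -0.03 (95% interval -0.36 to 0.29, adjusted p = 0.972 by limma) without and -0.04 (-0.37 to 0.28, adjusted p = 0.950) after maternal T3. Tnni2, the fast skeletal troponin I, had group means from 5.44 to 5.80, and no change of it was called. Its genotype changes were -0.14 (-0.58 to 0.30) without and -0.12 (-0.56 to 0.32) after maternal T3.

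Because both genes were read in the same RNA, Tnni1 can be followed relative to Tnni3 in each mouse. Set to a mean of 0 in untreated wild-type mice, the log2 ratio ran from -0.43 to 0.45 in that group and from -0.14 to 0.55 in T3-exposed wild-type mice. In TRα1+m mice it ran from 0.63 to 1.74 without and from 0.58 to 1.47 after maternal T3. All 12 TRα1+m mice therefore lay above all 12 wild-type mice, which was not so for Tnni1 alone. Over both treatments the ratio was 1.01 (standard error 0.15) higher in TRα1+m mice, and it was 0.14 (standard error 0.15) higher after maternal T3. This is a description without a test, and it does not compare the amounts of the 2 transcripts. The ratio is among several between troponin genes that were computed. How many ratios of other genes part the mice as fully was not counted. Its numerator, Tnni1, had wild-type means of 3.64 and 3.97, below the filter of 4.

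Tnnc1, the troponin C shared by the heart and slow skeletal muscle, was lower in TRα1+m mice. In untreated wild-type mice it was tightly set, with a lowest value of 17.64, a median of 17.68 and a highest of 17.79. In untreated TRα1+m mice it was 17.22, 17.36 and 17.97, so that 5 of 6 lay below every wild-type mouse while mouse 4 lay above them all. In T3-exposed wild-type mice it was 17.72, 17.97 and 18.30. In T3-exposed TRα1+m mice it was 17.27, 17.41 and 17.91, and the mutant had the higher value in only 3 of 36 pairs. Over both treatments the log2 change was -0.37 (standard error 0.10, adjusted p = 0.0286 by limma), or 1.29-fold lower. The change was -0.26 (standard error 0.15, adjusted p = 0.537, two-sided exact permutation p = 0.0455) without and -0.48 (standard error 0.15, adjusted p = 0.0786, two-sided exact permutation p = 0.0152) after maternal T3, and neither was called alone. The 2 differed by -0.22 (95% interval -0.64 to 0.21).

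The call for Tnnc1 over both treatments was lost without untreated TRα1+m mouse 53, T3-exposed TRα1+m mouse 49 or mouse 51, with adjusted p up to 0.0529. After maternal T3, Tnnc1 was called when untreated TRα1+m mouse 4 or T3-exposed TRα1+m mouse 16 or 17 was omitted, with adjusted p down to 0.0389. Untreated TRα1+m mouse 4 and T3-exposed TRα1+m mice 16 and 17, which stood apart on the first principal component, had the 3 highest Tnnc1 values of all TRα1+m mice. T3-exposed wild-type mice 14 and 15, which also stood apart, had the highest values of all mice, 18.30 and 18.17. Without the 5 arrays that stood apart, an analysis added after the data had been seen, Tnnc1 was lower by more: the change was -0.46 (standard error 0.08, adjusted p = 0.000570 by limma) over both treatments, and -0.54 (standard error 0.12, adjusted p = 0.0126) after maternal T3. The component itself moved with Tnnc1 (r = 0.57). The choice of these arrays was thus not independent of Tnnc1, and the larger change is no separate result. Among mice with label numbers above 30 alone the change over both treatments was -0.46 (adjusted p = 0.0100), and among the 9 mice with numbers below 20 it was -0.21 (adjusted p = 0.787), where untreated wild-type is 1 mouse, assumed to vary like the other groups. Tnni1 in the same subsets was higher by 0.84 (adjusted p = 0.0222) and 1.07 (adjusted p = 0.210). With the label range as a term in the fit the changes were -0.39 (adjusted p = 0.00599) for Tnnc1 and 0.95 (adjusted p = 0.000378) for Tnni1.

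Tnnc1 was higher after maternal T3 in wild-type mice in 34 of 36 pairs, by 0.31 (standard error 0.15, two-sided exact permutation p = 0.00649), but with an adjusted p of 0.449 by limma it was not called. In TRα1+m mice the change after maternal T3 was 0.09 (95% interval -0.21 to 0.39). Tnnc2, the fast skeletal troponin C, was at the low end of the array, with group means from 3.82 to 4.03 and only 6 of 24 mice above 4. No change of Tnnc2 was called, and its 95% interval for genotype without maternal T3 ran from -0.18 to 0.45.

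**Figure D2:**
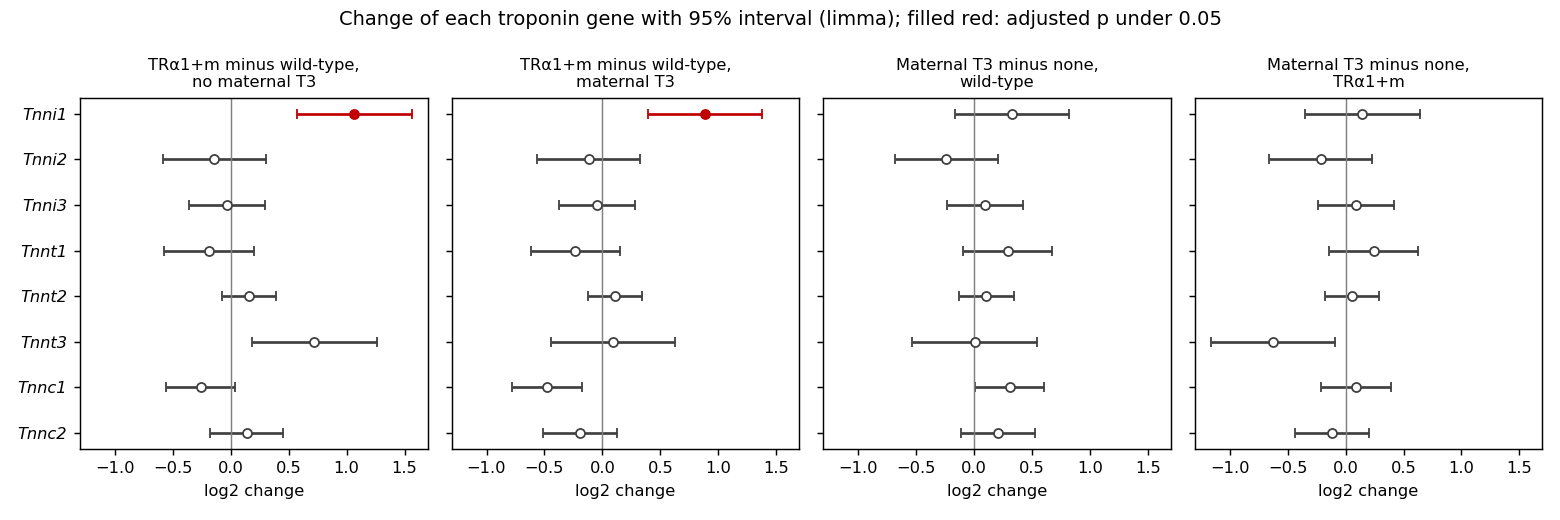
Log2 change (x axis) with its 95% interval from limma for each troponin gene (y axis) in 4 comparisons, with filled red points where the adjusted p was under 0.05. Tnni1 is called in both genotype panels (1.07 and 0.88), and no gene is called in either panel of maternal T3.

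Tnnt2, the cardiac troponin T, was slightly higher in TRα1+m mice, by an amount that was not called. Without maternal T3 its values ran from 18.91 to 19.03 (median 18.94) in wild-type and, for TRα1+m mice, from 18.93 to 19.25 (median 19.13). In T3-exposed mice they ran from 18.84 to 19.29 (median 19.02) in wild-type mice and from 18.98 to 19.37 (median 19.16) in mutants. The groups overlapped, with the untreated TRα1+m mouse the higher in 32 of 36 pairs. The genotype changes were 0.16 (standard error 0.11, adjusted p = 0.677 by limma, two-sided exact permutation p = 0.0195) without and 0.11 (standard error 0.11, adjusted p = 0.766) after maternal T3. Only 19 genes or probe sets of the array had a higher mean, so Tnnt2 was read close to the top of the scale, where changes can be compressed.

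The cardiac subunits can also be set against each other within each mouse. The log2 ratio of Tnnt2 to Tnnc1, set to a mean of 0 in untreated wild-type mice, ran from -0.10 to 0.12 in that group and from -0.27 to -0.13 in T3-exposed wild-type mice. In TRα1+m mice it ran from 0.02 to 0.68 without and from 0.09 to 0.59 after maternal T3, and 5 of 6 mice in each TRα1+m group lay above all wild-type mice. Over both treatments the ratio was 0.50 (standard error 0.07) higher in TRα1+m mice. The ratio of Tnni3 to Tnnc1 was 0.33 (standard error 0.06) higher, with 5 of 6 untreated and 3 of 6 T3-exposed TRα1+m mice above all wild-type mice. Both ratios are descriptions with no test, and Tnnc1 is the denominator of both. How many ratios of other genes place as many TRα1+m mice above all wild-type mice was not counted.

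**Figure D3:**
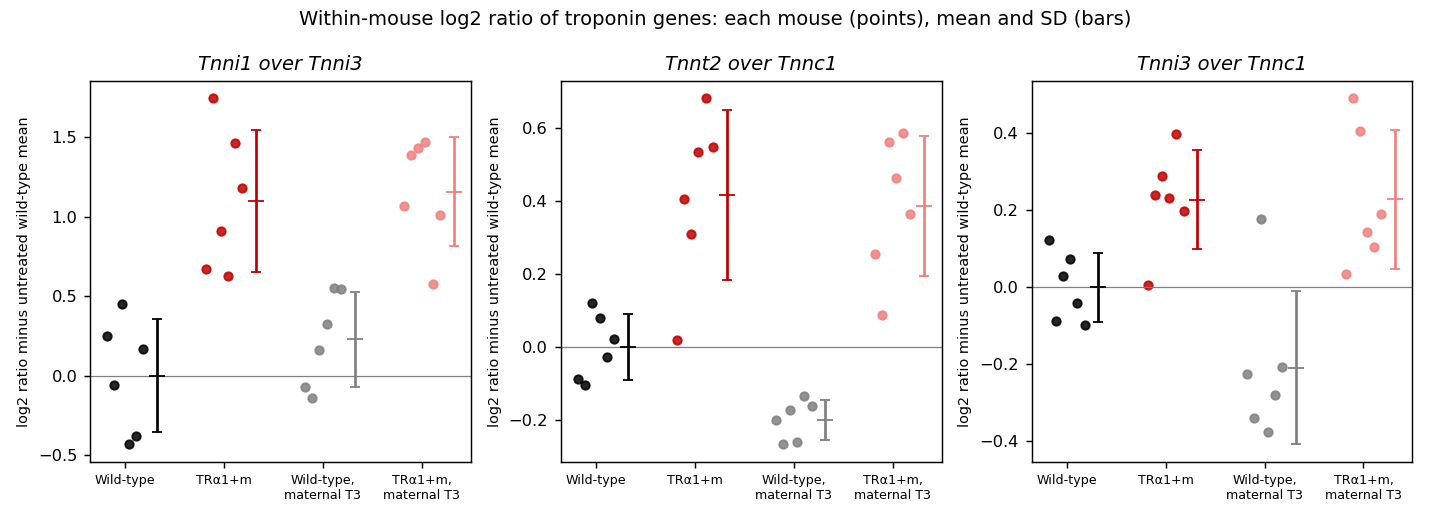
Log2 ratio of 2 troponin genes in each mouse minus the mean of untreated wild-type mice (y axes) by group (x axes), with mean and SD, n = 6. For Tnni1 over Tnni3 all 12 TRα1+m mice lie above all wild-type mice, whose highest ratio is 0.55, and for Tnnt2 over Tnnc1 5 of 6 mice in each TRα1+m group do. How many ratios of other genes do so was not counted. Tnni1 had wild-type means of 3.64 and 3.97, below the filter of 4.

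**Figure D4:**
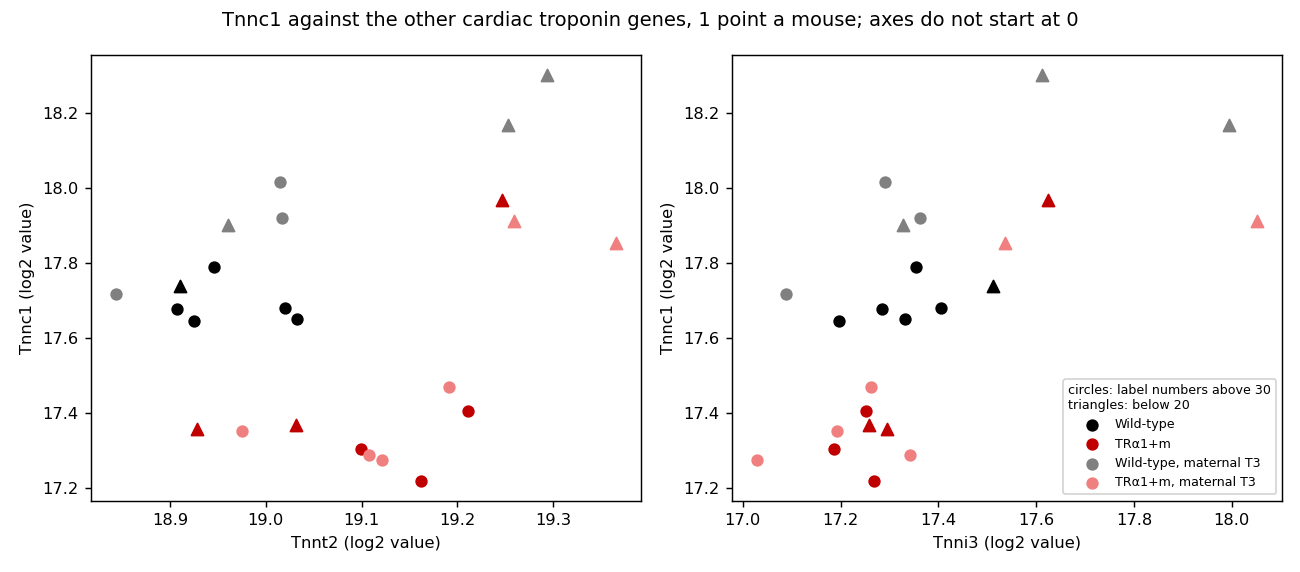
Tnnc1 log2 value (y axes) against Tnnt2 (left) and Tnni3 (right), 1 point a mouse, coloured by group, with triangles for label numbers below 20 and circles for those above 30. At a similar Tnnt2 value most TRα1+m mice have a lower Tnnc1 value than wild-type mice, and the 3 TRα1+m mice with the highest Tnnc1 values, 17.85 to 17.97, are triangles.

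Among the skeletal troponin T genes, Tnnt3, the fast isoform, stood higher in untreated TRα1+m mice. Without maternal T3 it ran from 5.64 over a median of 6.22 to 6.55 in wild-type mice and from 6.41 over 6.64 to 7.58 in TRα1+m mice. These groups overlapped only at their edges, and the mutant exceeded the wild-type in 34 of 36 pairs. In T3-exposed mice it ran from 5.40 over 5.98 to 7.03 in wild-type and from 5.31 over 6.34 to 6.67 in TRα1+m mice, and the groups overlapped broadly. The change without maternal T3 was 0.72 (standard error 0.26, two-sided exact permutation p = 0.00649), but the adjusted p of 0.215 by limma did not pass the threshold. An unadjusted p under 0.05, as here, was found for 11.5% of all genes tested in that comparison. After maternal T3 the genotype change was 0.09 (standard error 0.26), and within TRα1+m mice the change with maternal T3 was -0.63 (standard error 0.26, adjusted p = 0.535 by limma). These comparisons share the untreated TRα1+m mice, and the difference of the genotype effects, -0.63 (95% interval -1.39 to 0.13, unadjusted p = 0.0988 by limma), was not called.

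The untreated TRα1+m mouse with the highest Tnnt3, mouse 4 at 7.58, also had the highest mean of 22 skeletal muscle markers of any mouse, 5.77 against 5.22 to 5.55 in the others, and the highest values of the fast myosin gene Myh4 and the fast calcium pump gene Atp2a1, the latter at 5.78. It also had the highest mean of 9 lung markers, 5.44 against at most 4.83 in the others. Of these 22 markers 17 were tested. None was called for genotype without maternal T3. Myl1 and Casq1 were called lower in TRα1+m mice after it, where 2.79% of all genes tested were called. Both were also called lower over both treatments, by 1.02 and 0.62, where 3.7% of all were called lower. The markers were not alike in level: Myod1 and Ryr1 stayed at or below 3.66 and 4.15, while Myog reached 5.41. Myl1 had group means of 10.37 to 12.15, against 4.08 to 5.01 for Myh4, and which cells its signal came from was not tested. Cacna1s and Stac3 had group means of 7.62 to 7.92 and of 8.71 to 9.07. Without the 5 arrays that stood apart, mouse 4 among them, the Tnnt3 change without maternal T3 was 0.58 (adjusted p = 0.338 by limma). The part of skeletal muscle in the Tnnt3 values was not tested. Tnnt1, the slow skeletal troponin T, had values from 8.76 to 9.96 and group means of 9.32 (wild-type) and 9.13 (TRα1+m) without, and of 9.61 and 9.37 after, maternal T3. Its genotype changes were -0.19 (95% interval -0.57 to 0.20) and -0.23 (-0.62 to 0.15), and its change after maternal T3 over both genotypes was 0.27 (-0.01 to 0.54, adjusted p = 0.318).

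Counted over the 8 troponin genes, 1 was called for genotype without maternal T3 (Tnni1, which entered the test only through the TRα1+m groups and is left out at a filter of 5), where 1.62% of all genes tested were called, and 1 after maternal T3 (Tnni1), where 2.79% were. Over both treatments 2 were called, Tnni1 higher and Tnnc1 lower, where 6.28% of all were called, 2.59% higher and 3.7% lower. When mutants of treated mothers were set against wild-types of untreated mothers, 1 was called (Tnni1), against 4.45% of all. For maternal T3 none of the 8 was called by limma in wild-type mice (0.00505% of all, 1 gene), in TRα1+m mice (0.0859% of all, 17 genes) or over both genotypes (0.0101% of all, 2 genes), with 1, 1 and 0 of the 8 at an unadjusted p under 0.05, where 11%, 8.31% and 16.3% of all were. For the difference between genotype effects none of the 8 nor of all genes was called, with 0 of the 8 and 830 of all genes (4.19%) at an unadjusted p under 0.05. The median change of the 8 genes was 0.05 without and -0.08 after maternal T3 for genotype, beside -0.01 in both for all genes tested. A two-factor test per gene, of the kind in the study's methods but adjusted by the Benjamini, Krieger and Yekutieli procedure over all genes tested here, called Tnni1 and Tnnc1 for genotype and no troponin gene for maternal T3 or the interaction.

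The cardiac troponin genes varied together from mouse to mouse. With group means removed, 24 of 28 pairs of troponin genes correlated positively over 24 mice, and 4 pairs had a Benjamini-Hochberg adjusted permutation p under 0.05. The highest was Tnni3 with Tnnc1 (r = 0.80, rho = 0.76, permutation p = 0.000110 and 0.000210, adjusted p = 0.00308 and 0.00588). Without the 2 mice farthest from the median r was 0.83, and it was 0.67 among mice with label numbers below 20 and 0.64 among those above 30. Tnnt2 with Tnnc1 reached r = 0.71 (rho = 0.71, permutation p = 0.000750 and 0.000740, adjusted p = 0.0105 and 0.0104), 0.62 without 2 mice, and 0.80 and 0.50 in the label ranges. Tnni3 correlated with Tnnt2 (r = 0.66, rho = 0.67, permutation p = 0.00446 and 0.00181, adjusted p = 0.0312 and 0.0169) and with Tnnt1 (r = 0.66, rho = 0.62, permutation p = 0.00286 and 0.00438, adjusted p = 0.0267 and 0.0307). Without 2 mice these were 0.66 and 0.54. In the ranges below 20 and above 30 they were 0.61 and 0.68 for Tnnt2 and 0.57 and 0.35 for Tnnt1. Tnni1 with Tnni3 had r = 0.57 (rho = 0.44, permutation p = 0.0122 and 0.0408, adjusted p = 0.0567 and 0.177), and 0.29 without 2 mice. The first principal component, on which 5 arrays stood apart, moved with the bright cardiac genes, with r of 0.81 for Tnnt2, 0.80 for Tnni3 and 0.57 for Tnnc1. It also moved with the less bright Tnnt1 (r = 0.51) and the dim Tnni1 (r = 0.44). Its part in the correlations was not tested. The share of positive pairs among all genes was not counted. With group means removed, Tnni3 had a higher r with Ndufb4 (0.92), and Tnnc1 with Mrpl42 (0.96), than the 2 had with each other.

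**Figure D5:**
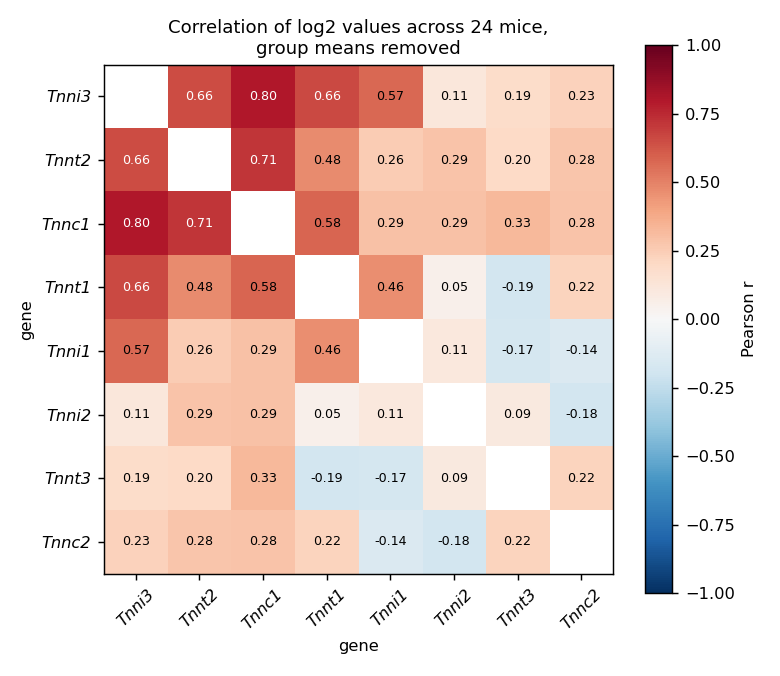
Pearson r between the log2 values of troponin genes across 24 mice after removal of group means (colour scale and printed values, genes on both axes). Tnni3, Tnnt2, Tnnc1 and Tnnt1 form a block of positive values from 0.48 to 0.80, while Tnni2, Tnnt3 and Tnnc2 stay between -0.19 and 0.33 with all other troponin genes.

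Other genes with a pattern like that of the called troponin genes were found by Pearson r over the 24 arrays, as a description. The genes most like Tnni1 were Rtn4 (r = 0.85), a protein that shapes the endoplasmic reticulum, Ptp4a3 (0.85), a phosphatase, Nadk2 (0.82), the mitochondrial NAD kinase, the noncoding gene Gata6os (0.80) and Thra (0.79), the gene of the receptor itself. All 5 were called higher in TRα1+m mice over both treatments, where 2.59% of all genes tested were, with Rtn4 higher by 0.98 and Thra by 0.66. Tnni1 differed by genotype and group means were kept, so these calls follow largely from the choice of genes and are no separate result. With group means removed, the likeness was to other genes, Trim11 (0.75), Runx3, Ifna1, Ncaph2 and Plpp4 (0.69). Those most like Tnnc1 were Cox7a1 (0.94), the heart and muscle subunit of cytochrome c oxidase, Dlat (0.94), a subunit of pyruvate dehydrogenase, Higd1a, Msrb1 and Yif1b (0.92). All 5 were called lower over both treatments, where 3.7% of all genes tested were, which follows largely from the choice in the same way. With group means removed the genes most like Tnnc1 were Mrpl42 (0.96), Anapc13, Atp5j, Commd1 and Cox5a (0.95). The 5 genes most like Tnni3 on all arrays included Ndufb4 (0.90) and Ndufs3 (0.89), both of complex I of the respiratory chain. Those most like Tnnt2 were the spectrin gene Sptan1 (0.88), Rps15, Pafah1b1, Fabp4 (0.87) and Rpl21 (0.86).

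Lad1, which lies between Tnni1 and Tnnt2 and encodes ladinin, was higher in TRα1+m mice by 1.41 (standard error 0.26, adjusted p = 0.00206 by limma) without and 1.82 (standard error 0.26, adjusted p = 7.72e-05) after maternal T3. On the other side of Tnni1, Phlda3 was not called for genotype (0.50 over both treatments, adjusted p = 0.198). Next to Tnnt3, Prr33 was lower in TRα1+m mice by 0.71 (standard error 0.12, adjusted p = 0.000193) over both treatments. Of 13 genes that flank a troponin gene, 2 were called for genotype over both treatments, Lad1 and Prr33, where 6.28% of all genes tested were.

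The partners of troponin on the thin filament are actin, tropomyosin and the proteins that cap and size the filament. Of 15 such genes, all tested, none was called higher in TRα1+m mice and 3 were called lower over both treatments, where 2.59% of all genes tested were called higher and 3.7% lower. The same shares stand beside the counts over both treatments of the next lists. Acta1, the skeletal α-actin, was lower by 1.09 without maternal T3 (standard error 0.27, adjusted p = 0.0305 by limma). These groups overlapped, and the mutant was higher in 6 of 36 pairs. After maternal T3 Acta1 was lower by 2.22 (standard error 0.27, adjusted p = 1.34e-05 by limma). The difference between these changes was not called. The leiomodin genes Lmod3 and Lmod2, whose proteins elongate thin filaments, were lower by 0.80 (adjusted p = 0.000103 by limma) and 0.40 (adjusted p = 0.00820) over both treatments. The median change of the list was -0.09, beside -0.01 for all genes. Of 18 measured kinases, phosphatases and other regulators of the contractile proteins, 3 were called lower and none higher over both treatments. Camk2b, a calcium/calmodulin-dependent kinase subunit, was lower by 1.79 (standard error 0.18, adjusted p = 2.3e-07), and Tnni3k, a kinase named for its binding to cardiac troponin I, by 0.39 (adjusted p = 0.0347). Mybpc3, the cardiac myosin-binding protein C of the thick filament, was lower by 0.33 (adjusted p = 0.0320). For maternal T3 none of these 33 genes was called by limma in wild-type or TRα1+m mice, where 0.00505% and 0.0859% of all were. At an unadjusted p under 0.05, 1 thin filament gene was found in each genotype, where 11% and 8.31% of all were.

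Other gene pairs that switch between the fetal and the adult heart did not all follow Tnni1. Of 17 genes tested, 2 were called higher in TRα1+m mice over both treatments, Myh7, the slow myosin heavy chain of the fetal mouse heart, by 1.83 (standard error 0.14, adjusted p = 2.21e-09 by limma) and Hk1, the fetal hexokinase, by 0.48. Another 4 were called lower over both treatments, Nppb, Hk2, Myl3 and Hcn4. Nppb, a natriuretic peptide gene high in the fetal ventricle, was lower by 2.46 (standard error 0.35, adjusted p = 8.56e-05) after maternal T3, while its change without maternal T3 was -0.55 (adjusted p = 0.607). The difference between these changes was -1.91 and was not called (adjusted p = 0.848). Over both treatments the adult hexokinase Hk2 was lower by 0.62. Myl3, the ventricular essential light chain, was lower by 0.41 and Hcn4, a pacemaker channel gene, by 0.45 (adjusted p = 0.0460). The median of the list was -0.06, beside -0.01 for all genes.

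Markers of other cells were read in the same arrays. The mean of 10 atrial genes ran from 10.44 to 13.53 over the mice, and that of 10 smooth muscle genes from 9.68 to 10.82. That of 8 adipocyte genes ran from 6.35 to 10.39, and the groups overlapped. It ran from 6.35 to 7.88 (median 6.53) in untreated wild-type and from 6.40 to 8.61 (median 7.69) in untreated TRα1+m mice. After maternal T3 it ran from 6.46 to 8.64 (median 7.55) in wild-type and from 6.44 to 10.39 (median 8.26) in TRα1+m mice. Of the 7 adipocyte genes tested, none was called for genotype or for maternal T3. Fabp4 of this list was called 2.33-fold higher (adjusted p = 0.00789 by limma, 36 of 36 pairs) in T3-exposed TRα1+m than in untreated wild-type mice. There 2.32% of all genes tested were called higher, and for 1.73% the groups did not overlap in that direction. All 7 adipocyte genes tested were higher there, with a median change of 1.22, beside -0.03 for all genes. In this comparison Tnni1 was called too. The change of Fabp4 for genotype over both treatments was 0.62 (adjusted p = 0.0526). Group means of Fabp4, 14.45 to 15.67, were far above those of Adipoq (5.37 to 7.71) and Plin1 (4.96 to 6.41), and which cells its signal came from was not tested. The part of these adipocyte genes in the Tnni1 difference was not tested. Of the other genes of these 3 lists only the smooth muscle gene Synpo2 was called for genotype over both treatments, lower by 0.51 in TRα1+m mice. Lung markers had means of 4.10 to 5.44, red blood cell markers of 6.02 to 8.03, with none called, and ventricular markers of 18.22 to 18.41, with 2 called lower, Mybpc3 and Myl3. In whole hearts, fewer cells of a type and less RNA per cell cannot be told apart, for Tnni1 and Tnnc1 as for these markers, and the part of cell composition in the troponin changes was not tested.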

How the data were processed

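Hearts were profiled on Clariom S arrays. The deposited table holds log2 values that the authors made with RMA in Transcriptome Analysis Console 4.0.1, per the submitters' processing notes and methods; RMA corrects background, normalizes between arrays and sums probes, and can shrink changes of very dim and very bright genes. Of 28846 probe sets, 6640 control probe sets were removed. Names were taken from the platform annotation, updated by gene number (19572 probe sets with 1 symbol, 2634 with none). For 55 symbols the probe set of highest mean was kept. With R 4.3.3 and limma 3.58.1, the values of 24 arrays were fitted with lmFit and eBayes, 1 mean per group, with contrasts for genotype, maternal T3, their interaction and mutants of treated against wild-types of untreated mothers. Genes with a mean above 4 in at least 1 group were tested (19801, of which 17478 named) and p-values adjusted over all. No 2 arrays were identical (r from 0.973 to 0.990). Arrays carry no read depth, so their number limits the precision. Exact permutation tests used the 924 splits of 12 mice, and correlations 100000 permutations (scipy 1.17.1). The script was tested on simulated data. Named genes were the 8 troponin genes, up to 4 called genes with the largest change per list, the genes most alike in pattern, and the neighbours on the chromosome. The members, the lists and the tests were chosen with earlier results of these data known. Promoters were matched for 6 of 8 genes by symbol (8 promoters); those of Tnni2 and Tnnt3 were not analysed here. Alternatives covered the filter, moderation, weights, label number range, samples fitted, scaling, probe set choice and each mouse left out.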

Additional observations from a re-analysis of the deposited data

Results flagged for a closer look

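In 3 of 32 groups of 6 values (8 troponin genes in 4 groups), 1 mouse lay far from the others by Dixon's test, which chance alone does in about 5 of 100 groups. Untreated TRα1+m mouse 4 had the highest value of its group for Tnni3, at 17.62, and for Tnnc1, at 17.97. T3-exposed TRα1+m mouse 50 had the lowest Tnnt3 of its group, at 5.31.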

How the results depend on the processing

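No paired analysis was possible because the groups share no mouse number in the labels. Beside the reported 321 and 552 genes called for genotype without and after maternal T3 and 1244 over both, the count without maternal T3 was 557 with array weights and 533 without the 5 arrays that stood apart, the last chosen after seeing the data. After maternal T3 it was 274 with only the arrays compared in the fit. With label numbers above 30 alone the counts were 159 and 273, and 415 for T3-exposed mutants against untreated wild-types (882 with all mice). With numbers below 20 alone they were 3, 11, 34 over both treatments, and 14. Fewer mice entered these fits, and below 20 untreated wild-type is 1 mouse, assumed to vary like the other groups, so every comparison with that group rests on a lone sample. For maternal T3 in wild-type mice (1 gene) the counts were 2 with the filter at 5, 2 with trended and robust moderation, 0 above 30, 3 below 20 and 0 without the 5 arrays. In TRα1+m mice (17 genes) they were 32 with that moderation, 39 with array weights, 30 with the label range as a term, 11 with the arrays compared alone, and 0 in either range. Over both genotypes (2 genes) they were 0 above 30 and 1 below 20. Array weights called 1 gene for the interaction (0 as reported).

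Of the 8 troponin genes, the filter at 5, which leaves Tnni1 untested, called 0 without, 0 after and 1 over both treatments, and 0 between T3-exposed mutants and untreated wild-types. Trended and robust moderation called 2 after maternal T3, adding Tnnc1 (adjusted p = 0.0294). With numbers above 30 alone 0 were called without and 0 after maternal T3, and with those below 20 alone 0 in each genotype comparison, with that lone wild-type mouse in those without maternal T3 and over both treatments. The arrays compared alone called 0 after maternal T3. Array weights (adjusted p = 0.112) and leaving out the 5 arrays (0.205) also lost Tnni1 after maternal T3. At an unadjusted p under 0.05, 2 were found for genotype without maternal T3 (11.5% of all genes tested) and 2 after it (13.7%). For maternal T3, 1 was found in wild-type (11% of all) and 1 in TRα1+m mice (8.31%). Leaving out each mouse in turn gave 0 to 1 troponin genes without, 0 to 2 after and 1 to 2 over both treatments, and 0 to 2 genes of all for maternal T3 in wild-type, 0 to 42 in TRα1+m mice, 2 to 42 over both genotypes, and 0 to 1 for the interaction. Positive correlations between troponin genes numbered 23 of 28 without 2 mice, 27 below 20 and 16 above 30 (24 with all). No troponin gene was called for maternal T3 or the interaction at an adjusted p under 0.05 in any setting run. Array signal near 4 limits what can be said of Tnni1 and Tnnc2.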
